A study of Mus musculus with 8 samples.

Results

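The genes of bile acid synthesis, conjugation, transport and nuclear receptor control were examined in bulk liver RNA of mice lacking the Nogo-B receptor (NgBR, encoded by Nus1) in hepatocytes. The set was a list of 34 symbols with these functions, chosen with earlier results of these data known. All 34 were among the 19642 genes of the deposited count table. WT livers (4) and N-LKO livers (4), all on a C57BL6 background and all fed a chow diet (CD), were sequenced. The study's methods state that only male mice were used in its experiments. The labels call the 4 libraries of each genotype biological replicates. N-LKO mice carried albumin-Cre and loxP-flanked NgBR alleles, and the study describes the deletion as specific to hepatocytes. Which other cells of the liver keep the gene was not measured here. The Cre and loxP status of the WT mice is not given in the sources used here. The sample titles and a supplementary legend give 8 weeks of CD and the treatment entries 16 weeks, so the duration is uncertain, and neither the age nor the time of day at collection is given in the sources used here.

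Bile acids are made from cholesterol in hepatocytes, mainly by a classic route that opens with Cyp7a1 and by an alternative route that opens with Cyp27a1. They are coupled to taurine, pumped into the canaliculus, reabsorbed in the ileum and taken up again from portal blood by basolateral carriers. Bile acids bound to FXR (Nr1h4) induce SHP (Nr0b2), and FGF15 from the intestine signals through Fgfr4 and beta-Klotho (Klb), and both of these restrain Cyp7a1. In whole liver RNA, fewer cells of a type and less RNA per cell cannot be told apart.

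The total count per liver ranged from 15430519 to 18412201 in the WT group and from 14688404 to 18585412 in the N-LKO group. Nus1, on chromosome 10 from 52417547 to 52440183 of GRCm38, was at 88.2 ± 4.14 CPM (counts scaled to library size, SD, n = 4) in the WT group and 36.7 ± 2.57 CPM (SD, n = 4) in the N-LKO group (log2 fold change -1.26, adjusted p = 3.06e-05 from the edgeR quasi-likelihood test). All 8 hepatocyte markers examined, from Alb to Asgr1, were in the table at high levels and 0 were called. Summed, they made up 67608 to 96449 CPM in WT livers and 71518 to 86409 CPM in N-LKO livers. Cholangiocyte markers moved with genotype. All 8 tested were positive and 2 passed the test, Epcam with a log2 fold change of 1.55 (adjusted p = 0.0293 from edgeR) and Spp1 with 1.51 (adjusted p = 0.0353 from edgeR). Each of these calls held in 2 of 8 fits with 1 liver left out, and limma-voom called neither (adjusted p = 0.0621 for Epcam and 0.0520 for Spp1), while DESeq2 called 3 of the list. Fibroblast and stellate markers had 2 of 9 called higher (Lum, in all 8 such fits, and Col1a1, in 1), while 0 of 8 Kupffer cell markers and 0 of 6 sinusoidal endothelial markers were called. Limma-voom called 1 of the fibroblast and stellate markers, Lum, and DESeq2 called 4. At an unadjusted p under 0.05 in edgeR there were 0 hepatocyte, 1 Kupffer cell and 0 endothelial markers, and DESeq2 and limma-voom called 0 in each of these 3 lists.

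Differences in the bile acid genes were mostly small, and none of these genes passed the test across all genes. Of the 34, 33 passed the edgeR filter on low counts and Slc51b did not. With the edgeR quasi-likelihood test and Benjamini-Hochberg adjustment over all 14214 genes tested, 0 of the 33 had an adjusted p under 0.05, against 1.04% of all genes (0.823% called higher and 0.218% called lower). At an unadjusted p under 0.05, which 12.8% of all genes reached, there were 10 of the 33 (30.3%), namely 6 with higher levels in N-LKO livers (6.87% of all genes) and 4 with lower levels (5.9% of all genes). That count was 5 without WT liver 4, 5 without N-LKO liver 3 and 13 with library totals alone. The list was chosen with earlier results of these data known, so the 30.3% is a description and not a test. DESeq2 called 1 of the 33, Slc10a2, and put 7 below an unadjusted p of 0.05, where it called 2.61% of all genes and had 11.5% at the unadjusted level. Limma-voom called 0 (0.886% of all genes) and also put 7 below the unadjusted level (12.8% of all genes). The median log2 fold change of the 33 was 0.015 and that of all genes -0.0033. Positive changes numbered 17 and negative changes 16, and 49.3% of all genes were positive. In 2 of the 33 (6.06%), Amacr and Slc10a1, the levels of the genotypes did not overlap, against 7.52% of all genes (4.2% higher and 3.32% lower), and both were lower in N-LKO livers. The 95% interval of the log2 fold change lay within 1 of 0 (a factor of 2) for 28 of the 33 and within 0.5 for 22.

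**Figure D1:**
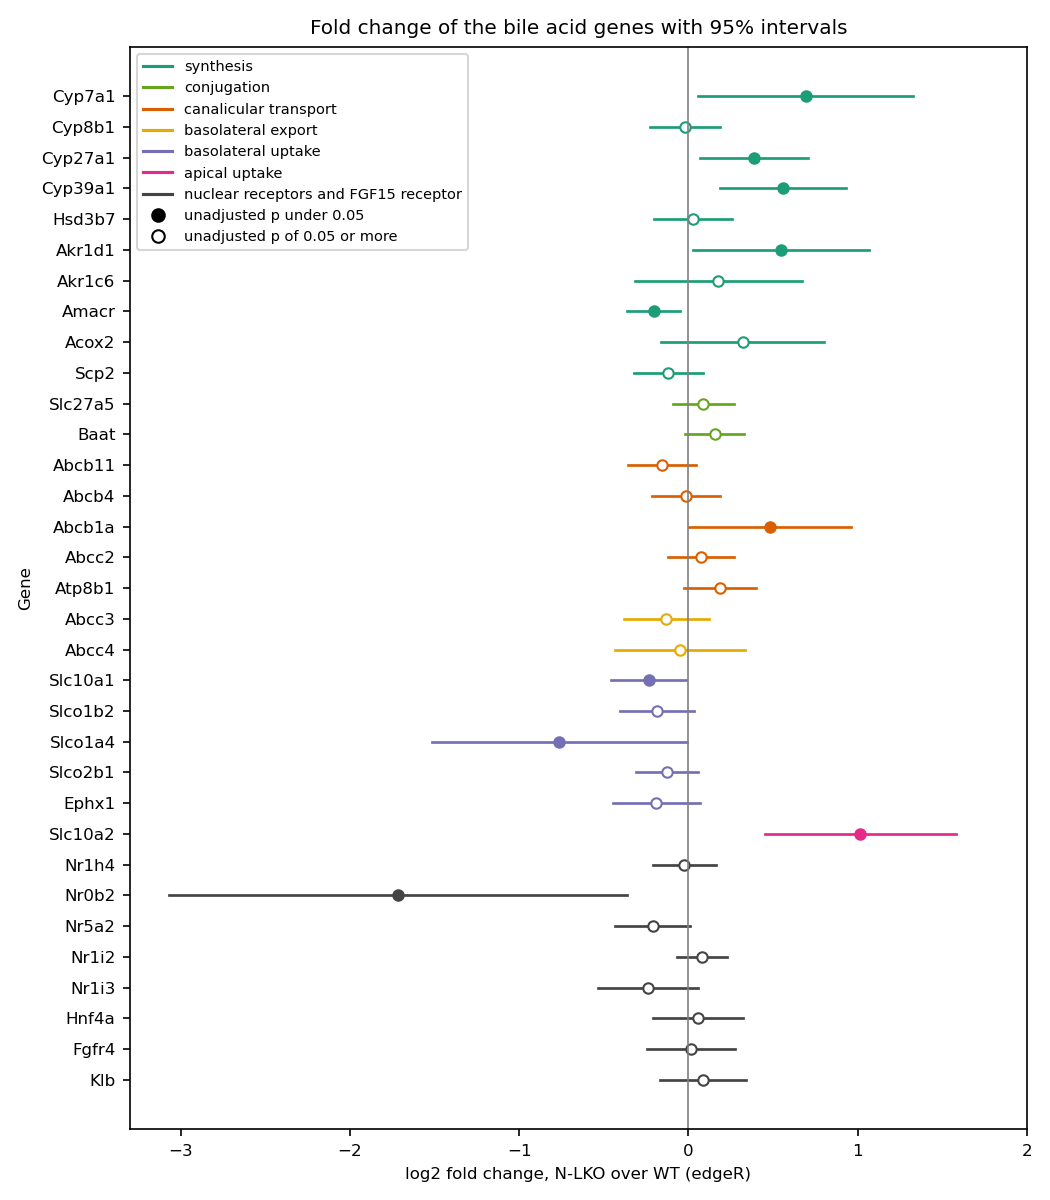
Log2 fold change of the 33 tested bile acid genes, N-LKO over WT (horizontal axis, from the edgeR fit across all genes), with 95% intervals and genes grouped by role. Slc10a2 (1.02) and Nr0b2 (-1.72) lie farthest from 0, and most other genes lie close to 0.

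Levels of different genes were compared as CPM per kb of exon in WT livers, with exon lengths from GENCODE M21. Scp2, the sterol carrier and peroxisomal thiolase gene, was highest at 1125 CPM per kb, and Cyp8b1, the sterol 12-alpha-hydroxylase that leads to cholic acid, came next at 386 CPM per kb. The uptake carriers Slc10a1 at 272 CPM per kb and Slco1b2 at 223 CPM per kb followed, then Baat at 151 CPM per kb and Slc27a5 at 149.9 CPM per kb, too close to be put in order. Cyp7a1 stood 12th per kb at 64.5. The lowest were Slc51b at 0.474, Abcb1a at 0.361 and Abcc4 at 0.354 CPM per kb.

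**Figure D2:**
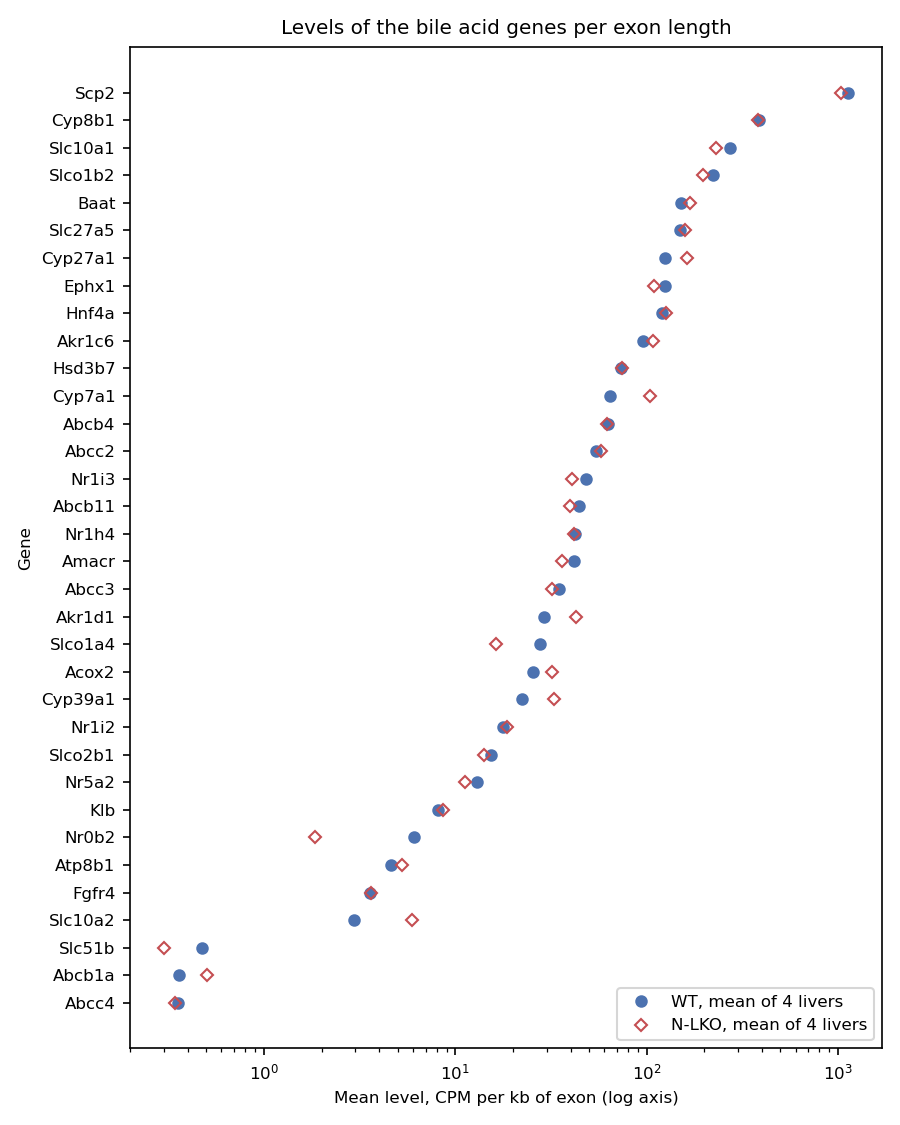
Mean level of the 34 bile acid genes in WT and N-LKO livers as CPM per kb of exon on a log axis, genes in order of the WT level. Levels run from 1125 for Scp2 to 0.354 for Abcc4 in WT livers, and the points of the genotypes lie close together for most genes.

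RefSeq promoter windows of the build GRCm38.p6 were used for 27 of the 34 genes. In these, the 250 bases before each annotated start were searched on both strands for 6 motifs. No window was searched for Cyp39a1, Baat, Amacr, Abcc3, Slc27a5, Cyp7a1 and Atp8b1, so nothing is said here about motifs in their promoters. AGGTCA, the core motif that many nuclear receptors bind, was in 9 of 34 windows of these genes (1 each for Abcb11, Abcc2, Akr1d1, Nr1h4, Nr5a2, Scp2, Slc10a1, Slc51b and Slco1b2) and in 14.0% of all 32851 windows. CAAAGTCCA, an HNF4 motif, was in 1 window, that of Cyp8b1, and in 0.384% of all windows. The longer letters CAAGGTCA (LRH-1 type, which contains AGGTCA, 1.33% of all windows), TTATGTAA (a D-box, 0.819%), GTTAAT and ATTAAC spaced by 1 base (HNF1, 0.00913%) and the inverted repeat of AGGTCA spaced by 1 base (FXR, 0.00609%) were in none of the windows of these genes. Windows are printed 5′ to 3′ on the strand of the gene for Akr1d1 (chr6:37529923-37530172, plus strand), Cyp8b1 (chr9:121916306-121916555, minus strand), the inner of 2 annotated starts of Slc10a1 (chr12:80968080-80968329, minus strand), Slc10a2 (chr8:5105288-5105537, minus strand) and Nr0b2 (chr4:133553126-133553375, plus strand). The first 3 hold a motif in a gene whose level is given in each liver, as do others not printed, such as Abcb11, Slco1b2 and Nr1h4. Slc10a2 and Nr0b2 were chosen because they had the largest differences of the set. Capitals mark a match, which is a description of letters and not a bound site. Only exact letters within 250 bases were searched, so a window without a match may still hold a site. The AGGTCA matches of Akr1d1 lie on the opposite strand, 232 and 210 bases before the start, and so read TGACCT here. That of Slc10a1 lies 87 bases before its start, and the CAAAGTCCA match of Cyp8b1 lies 67 bases before its start.
Akr1d1 promoter: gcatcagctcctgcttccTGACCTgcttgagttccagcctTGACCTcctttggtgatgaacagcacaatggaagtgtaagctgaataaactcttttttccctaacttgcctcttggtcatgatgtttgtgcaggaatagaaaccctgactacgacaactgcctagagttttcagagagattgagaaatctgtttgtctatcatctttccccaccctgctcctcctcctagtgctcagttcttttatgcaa
Cyp8b1 promoter: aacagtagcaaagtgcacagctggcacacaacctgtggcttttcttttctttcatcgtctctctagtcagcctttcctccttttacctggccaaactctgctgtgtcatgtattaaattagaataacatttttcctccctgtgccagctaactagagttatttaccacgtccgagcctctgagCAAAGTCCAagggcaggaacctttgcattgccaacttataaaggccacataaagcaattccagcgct
Slc10a1 promoter, inner start: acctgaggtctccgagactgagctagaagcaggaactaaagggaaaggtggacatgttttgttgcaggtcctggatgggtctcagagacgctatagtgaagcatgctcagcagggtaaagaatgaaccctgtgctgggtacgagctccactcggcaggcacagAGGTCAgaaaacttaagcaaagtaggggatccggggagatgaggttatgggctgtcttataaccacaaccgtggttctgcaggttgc
Slc10a2 promoter: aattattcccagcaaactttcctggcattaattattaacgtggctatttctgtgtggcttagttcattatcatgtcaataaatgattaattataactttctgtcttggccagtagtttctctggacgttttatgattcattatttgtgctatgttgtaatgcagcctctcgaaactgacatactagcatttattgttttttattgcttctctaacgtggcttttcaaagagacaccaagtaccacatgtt
Nr0b2 promoter: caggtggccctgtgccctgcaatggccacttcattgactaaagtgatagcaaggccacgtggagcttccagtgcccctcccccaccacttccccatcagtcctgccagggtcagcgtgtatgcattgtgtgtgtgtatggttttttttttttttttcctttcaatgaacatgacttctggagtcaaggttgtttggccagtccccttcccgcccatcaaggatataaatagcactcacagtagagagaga

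Among the 10 enzymes of synthesis, 4 had higher levels and 1 had a lower level in N-LKO livers at an unadjusted p under 0.05, with 0 called by edgeR after adjustment and a median log2 fold change of 0.25. Cyp7a1, the rate-limiting enzyme of the classic route (chromosome 4, 6265612 to 6275633, minus strand), was at 315, 349, 159 and 255 CPM in WT livers 1 to 4 and at 468, 355, 259.7 and 661 CPM in N-LKO livers 1 to 4. N-LKO livers 1, 2 and 4 were above every WT liver, although N-LKO liver 2 was above WT liver 2 by little, and N-LKO liver 3 lay within the WT range. For Cyp7a1 the log2 fold change was 0.69 (95% interval 0.057 to 1.33, adjusted p = 0.346 from edgeR). It was 0.42 without N-LKO liver 4.

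Cyp8b1 (chromosome 9, 121914356 to 121916305, minus strand) was at 807, 715, 712 and 779 CPM in WT livers and at 756, 759, 813 and 644 CPM in N-LKO livers. The ranges lay over each other, and the 95% interval of the log2 fold change, -0.23 to 0.19 around -0.020, was narrow. Cyp8b1 counts were 2.56, 2.05, 4.49 and 3.06 times those of Cyp7a1 in WT livers 1 to 4 and 1.62, 2.14, 3.13 and 0.974 times in N-LKO livers 1 to 4, on CPM not divided by length. On the log2 scale this ratio averaged 1.54 ± 0.478 (SD, n = 4) in WT livers and 0.85 ± 0.709 (SD, n = 4) in N-LKO livers, and the ranges overlapped. The ratio was lowest in N-LKO liver 4. Since the genes differ in length, it serves to compare livers and not the levels of the genes.

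Akr1d1, the delta4-3-oxosteroid 5-beta-reductase (chromosome 6, 37530173 to 37568815, plus strand), was at 64.7, 112, 73.5 and 87.0 CPM in WT livers and at 158, 69.9, 120.5 and 143.7 CPM in N-LKO livers. N-LKO livers 1, 3 and 4 were above every WT liver and N-LKO liver 2 was below the WT median. For Akr1d1 the log2 fold change was 0.55 (95% interval 0.029 to 1.07, adjusted p = 0.362 from edgeR). Hsd3b7, the 3-beta-hydroxy-C27-steroid dehydrogenase, had a log2 fold change of 0.026 (adjusted p = 0.952 from edgeR), whose sign changed under library totals alone, and its exons overlap those of 9430064I24Rik on the other strand and Gm49388 on the same strand. Akr1c6, a hydroxysteroid dehydrogenase of the aldo-keto reductase family, was at 121 to 245 CPM in WT livers and at 153 to 292 CPM in N-LKO livers (log2 fold change 0.18, adjusted p = 0.802 from edgeR). Akr1c6 belongs to a family of related genes and its counts carried decimals, so some of its reads may be shared with relatives.

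Cyp27a1, the mitochondrial sterol 27-hydroxylase (chromosome 1, 74713574 to 74737892, plus strand), was at 258, 309, 250.5 and 265 CPM in WT livers and at 431, 252, 366 and 366 CPM in N-LKO livers. The same N-LKO livers as for Akr1d1, numbers 1, 3 and 4, were above every WT liver, and N-LKO liver 2 was above only WT liver 3. Cyp27a1 had a log2 fold change of 0.39 (95% interval 0.067 to 0.71, adjusted p = 0.285 from edgeR). Without N-LKO liver 2 it was 0.52 and was called (adjusted p = 0.0439 from edgeR), and without N-LKO liver 1 it was 0.28.

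Cyp39a1, the oxysterol 7-alpha-hydroxylase that acts on 24-hydroxycholesterol (chromosome 17, 43667425 to 43751431, plus strand), was at 69.4, 89.5, 65.5 and 48.7 CPM in WT livers and at 122, 84.1, 93.8 and 103 CPM in N-LKO livers. N-LKO livers 1, 3 and 4 were again above every WT liver, and N-LKO liver 2 was above all but WT liver 2. Cyp39a1 had a log2 fold change of 0.56 (95% interval 0.19 to 0.93, adjusted p = 0.179 from edgeR), with a range of 0.43 to 0.72 when each liver was left out.

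**Figure D3:**
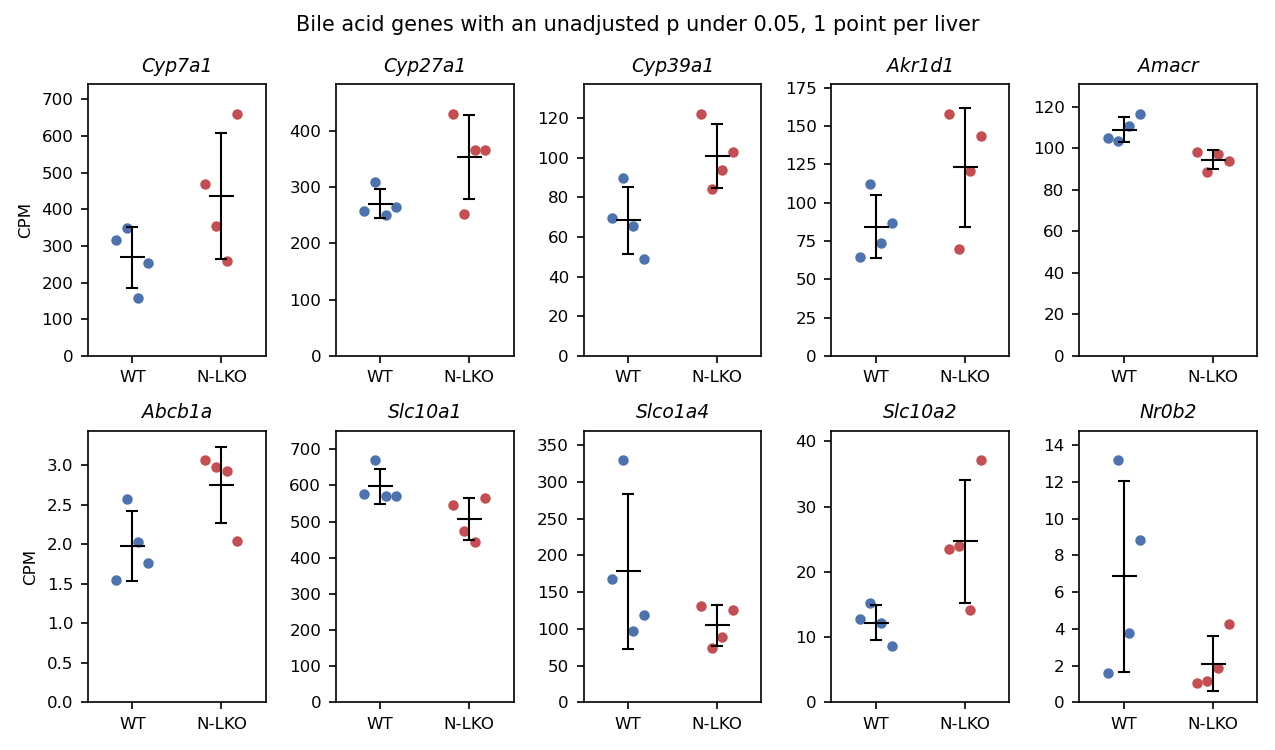
Level in each liver (CPM on axes from 0, 1 point per liver, dash and bar for the mean ± SD of 4 livers) of the 10 bile acid genes with an unadjusted p under 0.05. Only Amacr and Slc10a1 have no overlap between WT and N-LKO livers, and in Nr0b2 and Slco1a4 the WT livers themselves are spread widely.

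Side-chain shortening takes place in peroxisomes. Amacr, the racemase that prepares the side chain for oxidation (chromosome 15, 10981756 to 10996626, plus strand), was at 105, 103, 111 and 117 CPM in WT livers and at 98.3, 88.3, 97.3 and 93.8 CPM in N-LKO livers. Every N-LKO liver was below every WT liver, by a small amount. Its log2 fold change was -0.21 (95% interval -0.36 to -0.051, adjusted p = 0.232 from edgeR). Acox2, the branched-chain acyl-CoA oxidase, was at 67.5 to 124 CPM in WT livers and at 81.5 to 152 CPM in N-LKO livers (log2 fold change 0.32, adjusted p = 0.592 from edgeR). Scp2 averaged 3913 ± 105 CPM (SD, n = 4) in the WT group against 3607 ± 185 CPM (SD, n = 4) in the N-LKO group (log2 fold change -0.12, adjusted p = 0.653 from edgeR).

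The conjugating pair is Slc27a5, the bile acid CoA ligase, and Baat, the transferase that adds taurine or glycine. Slc27a5 averaged 365 ± 8.66 CPM (SD, n = 4) in the WT group against 388 ± 33.4 CPM (SD, n = 4) in the N-LKO group (log2 fold change 0.088, adjusted p = 0.716 from edgeR). Baat averaged 294 ± 16.8 CPM (SD, n = 4) in the WT group against 327 ± 21.7 CPM (SD, n = 4) in the N-LKO group (log2 fold change 0.16, adjusted p = 0.452 from edgeR).

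At the canalicular membrane, 0 of 5 genes were called by edgeR and only Abcb1a had an unadjusted p under 0.05. Abcb11, the bile salt export pump (chromosome 2, 69238282 to 69342616, minus strand), was at 221, 234, 221 and 232 CPM in WT livers and at 198, 194, 182 and 242 CPM in N-LKO livers. N-LKO livers 1 to 3 were below every WT liver and N-LKO liver 4 was above them all. Abcb11 had a log2 fold change of -0.16 (95% interval -0.36 to 0.048, adjusted p = 0.529 from edgeR). Abcb4, the phospholipid floppase, had a log2 fold change of -0.014 (adjusted p = 0.973 from edgeR), and Abcc2, the carrier of organic anions and bilirubin conjugates, 0.073 (adjusted p = 0.792 from edgeR). Atp8b1, the aminophospholipid flippase whose loss causes cholestasis, was at 29.6 to 32.9 CPM in WT livers and at 31.7 to 41.7 CPM in N-LKO livers (log2 fold change 0.19, adjusted p = 0.470 from edgeR).

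Abcb1a, an efflux pump of drugs and other hydrophobic compounds (chromosome 5, 8660077 to 8748575, plus strand), was at 1.55, 2.56, 2.03 and 1.77 CPM in WT livers and at 3.06, 2.97, 2.92 and 2.04 CPM in N-LKO livers. N-LKO livers 1 to 3 were above every WT liver, and N-LKO liver 4 lay within the WT range. Abcb1a had a log2 fold change of 0.48 (95% interval 0.0032 to 0.96, adjusted p = 0.389 from edgeR). These values are uncertain, since Abcb1a has a close paralog, Abcb1b, its counts carried decimals, and its exons overlap Gm42686 on the other strand.

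Of the 3 genes of basolateral export, 2 were tested and edgeR called 0. Abcc3, an exporter of glucuronides and bile acids to the sinusoid, was at 185 to 221 CPM in WT livers and at 154 to 225 CPM in N-LKO livers (log2 fold change -0.13, adjusted p = 0.701 from edgeR). Abcc4, another such exporter, was at 2.00 to 2.46 CPM in WT livers and at 2.04 to 2.52 CPM in N-LKO livers (log2 fold change -0.049, adjusted p = 0.945 from edgeR). Slc51b, the beta subunit of the organic solute transporter, had 6, 6, 5 and 6 counts in WT livers and 1, 6, 3 and 3 counts in N-LKO livers. At those counts a difference in Slc51b was not detectable, and its exons overlap Rasl12 on the other strand.

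The 5 genes of basolateral uptake all had negative log2 fold changes, with a median of -0.19 and 0 called by edgeR. Their direction was the same in every setting tried, but the sizes were small for 4 of the 5. Of all genes 49.3% were positive. The 11 further transporters tested, described below, had 9 positive and 2 negative changes. Slco1a1 at 0.064 and Slc22a7 at 0.66 were among the positive ones. The shared direction therefore holds for the 5 listed and not for carriers in general. Slc10a1, the sodium-dependent taurocholate carrier NTCP (chromosome 12, 80953183 to 80968705, minus strand), was at 578, 670.0, 571 and 570.0 CPM in WT livers and at 545, 474, 445 and 566 CPM in N-LKO livers. Every N-LKO liver was below every WT liver, but N-LKO liver 4 came close to WT liver 4. For Slc10a1 the log2 fold change was -0.24 (95% interval -0.46 to -0.013, adjusted p = 0.360 from edgeR).

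Slco1b2, a carrier of unconjugated bile acids and bilirubin, was at 1005, 1184, 1071 and 1137 CPM in WT livers and at 933, 979, 856 and 1096 CPM in N-LKO livers. N-LKO livers 1 to 3 were below every WT liver, and the log2 fold change was -0.19 (adjusted p = 0.480 from edgeR). Slco1a4, an organic anion carrier under PXR control (chromosome 6, 141805440 to 141856199, minus strand), was at 168.2, 329.6, 96.6 and 119 CPM in WT livers and at 131, 74.4, 88.6 and 126 CPM in N-LKO livers. WT liver 2 alone stood far above the rest, and the other 3 WT livers overlapped the N-LKO livers. Slco1a4 had a log2 fold change of -0.76 (95% interval -1.51 to -0.0098, adjusted p = 0.387 from edgeR) and -0.28 without WT liver 2. Slco2b1, a carrier of sulfated steroids and bile acids, had a log2 fold change of -0.13 (adjusted p = 0.581 from edgeR), and its exons overlap Gm15635 and Gm34280 on the other strand. Ephx1, the microsomal epoxide hydrolase that has also been proposed to take part in bile acid uptake, had -0.19 (adjusted p = 0.546 from edgeR). Exons of Ephx1 overlap Gm36961 on the same strand.

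Slc10a2, the apical sodium-dependent bile acid carrier known from ileal enterocytes and cholangiocytes (chromosome 8, 5083219 to 5105351, minus strand), had the lowest p of the 33 genes. Its level was 12.8, 15.2, 12.2 and 8.66 CPM in WT livers and 23.6, 24.0, 14.1 and 37.1 CPM in N-LKO livers. N-LKO livers 1, 2 and 4 were above every WT liver, and N-LKO liver 3 was below WT liver 2. For Slc10a2 the log2 fold change was 1.02 (95% interval 0.45 to 1.58, 2.02-fold, adjusted p = 0.110 from edgeR). DESeq2 called it (log2 fold change 1.02, adjusted p = 0.00548), and edgeR called it without N-LKO liver 3 (1.21, adjusted p = 0.0428). Without N-LKO liver 4 the log2 fold change was 0.75.

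The 11 cholangiocyte markers in the table summed to 53.5 to 82.3 CPM in WT livers and to 90.7 to 180 CPM in N-LKO livers, without overlap. Within the N-LKO group they were highest in liver 3, where Slc10a2 was lowest. In that liver Epcam was at 4.84 CPM and Spp1 at 105 CPM, and in N-LKO liver 4, with the most Slc10a2, Epcam was at 2.58 CPM and Spp1 at 61.9 CPM. No cholangiocyte marker in the table was at 0 in all livers, though Cftr was at 0 in WT liver 1, and Krt7 was at 0.198 to 0.597 CPM. Of the ileal enterocyte markers, Vil1 was at 0.0625 to 0.330 CPM over all livers, and Fabp2, which passed the filter, had a log2 fold change of -0.51 (adjusted p = 0.101 from edgeR). Fabp6, Fgf15, Cdx2 and Slc6a19 were not analysed here. What part the cholangiocyte markers have in the Slc10a2 difference was not tested.

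Among the 8 nuclear receptors and FGF15 receptor genes, 0 were called by edgeR, 4 log2 fold changes were positive and 4 negative, and the median was -0.0043. Nr0b2, the corepressor SHP (chromosome 4, 133553376 to 133556536, plus strand), was at 1.60, 13.2, 3.80 and 8.83 CPM in WT livers and at 1.08, 1.19, 1.86 and 4.28 CPM in N-LKO livers. The WT livers ranged from 30 to 211 counts and the N-LKO livers from 18 to 63. WT livers 2 and 4 were above every N-LKO liver, and WT livers 1 and 3 lay below N-LKO liver 4. The log2 fold change of Nr0b2 was -1.72 (95% interval -3.07 to -0.36, adjusted p = 0.257 from edgeR), the largest in size of the 33 genes and the one with the widest interval. It was -1.19 without WT liver 2 and -2.32 without N-LKO liver 4.

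Nr1h4, the bile acid receptor FXR, was at 101, 97.5, 94.1 and 96.7 CPM in WT livers and at 111, 90.3, 85.4 and 96.5 CPM in N-LKO livers, with overlapping ranges and a log2 fold change of -0.024 (adjusted p = 0.945 from edgeR). Nr5a2, the LRH-1 receptor that drives Cyp7a1 and Cyp8b1, was at 71.1 to 84.3 CPM in WT livers and at 57.9 to 76.9 CPM in N-LKO livers (log2 fold change -0.21, adjusted p = 0.417 from edgeR). Of the xenobiotic receptors, PXR (Nr1i2) had a log2 fold change of 0.081 (adjusted p = 0.675 from edgeR) and CAR (Nr1i3), whose exons overlap Tomm40l on the other strand, -0.24 (adjusted p = 0.504 from edgeR). Hnf4a, the hepatocyte factor that also acts at Cyp7a1 and Cyp8b1, was at 515 to 648 CPM in WT livers and at 543 to 734 CPM in N-LKO livers (log2 fold change 0.057, adjusted p = 0.895 from edgeR). Fgfr4 was at 10.4 to 14.4 CPM in WT livers and at 11.8 to 13.9 CPM in N-LKO livers, and its log2 difference of 0.015 (adjusted p = 0.976 from edgeR) changed sign under library totals alone. Klb, its co-receptor, was at 30.7 to 42.2 CPM in WT livers and at 34.3 to 45.6 CPM in N-LKO livers (log2 fold change 0.088, adjusted p = 0.813 from edgeR).

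Some livers were highest in their group for more of these genes than others. WT liver 2 was highest of the WT livers in 15 of the 33 genes, and N-LKO liver 4 was highest of the N-LKO livers in 14, among them Cyp7a1, Slc10a2, Nr0b2 and Abcb11. N-LKO livers 2 and 3 were each lowest of their group in 12. The same counts were not made over all genes. Whether the pattern is particular to these genes was therefore not tested.

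Other genes of the pathway were counted in lists set beside the 34. Of 10 further enzymes of sterol and bile acid metabolism, edgeR called 1, Hsd17b6, a hydroxysteroid dehydrogenase of androgen and retinoid metabolism (chromosome 10, 127990936 to 128007611, minus strand). Hsd17b6 was at 34.6, 65.2, 63.9 and 82.6 CPM in WT livers and at 19.7, 14.0, 18.9 and 30.8 CPM in N-LKO livers. Every N-LKO liver was below every WT liver, and edgeR gave a log2 fold change of -1.56 (adjusted p = 0.0223). It stayed called in 3 of 8 fits with 1 liver left out, with adjusted p up to 0.0865. The median log2 fold change of these 10 enzymes was -0.0012.

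Cyp7b1 and Cyp2c70, chosen after their values were seen, are the oxysterol 7-alpha-hydroxylase of the alternative route and the enzyme that makes muricholic acids in mice. Cyp7b1 was at 77.3, 29.5, 77.5 and 75.5 CPM in WT livers and at 162, 93.9, 278 and 172 CPM in N-LKO livers, with no overlap. Cyp7b1 had a log2 fold change of 1.44 (adjusted p = 0.0875 from edgeR), and it was called without N-LKO liver 2 (adjusted p = 0.0381 from edgeR). Cyp2c70 was at 27.4, 28.3, 34.4 and 23.0 CPM in WT livers and at 53.0, 33.5, 49.6 and 62.8 CPM in N-LKO livers. N-LKO liver 2 was just below WT liver 3 and the other 3 N-LKO livers were above every WT liver. The log2 fold change of Cyp2c70 was 0.82 (adjusted p = 0.0627 from edgeR), and it was called without N-LKO liver 2 (adjusted p = 0.00930 from edgeR). Cyp46a1, the cholesterol 24-hydroxylase, also chosen after its values were seen, went the other way, at 0.801, 1.19, 1.90 and 1.38 CPM in WT livers and 0.397, 0.792, 0.398 and 0.339 CPM in N-LKO livers. Every N-LKO liver was below every WT liver, on 5 to 30 counts a liver, and edgeR gave a log2 fold change of -1.43 (adjusted p = 0.118). Of these 3 genes DESeq2 called Cyp7b1 and Cyp2c70, with adjusted p of 0.0397 for Cyp7b1 and 0.00147 for Cyp2c70.

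**Figure D4:**
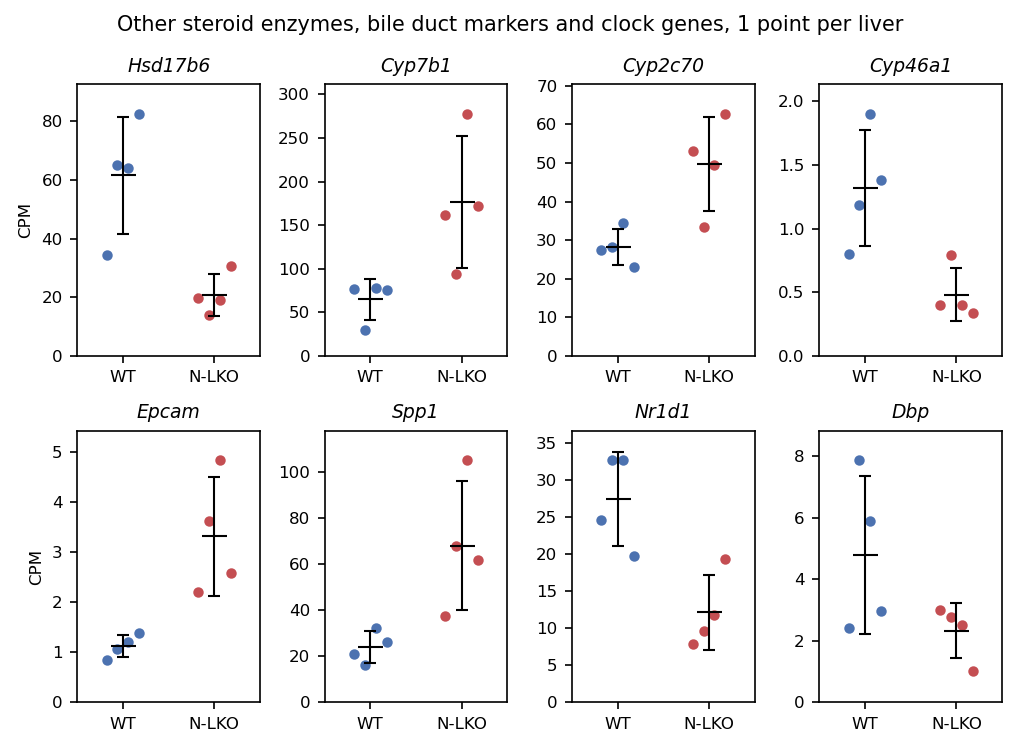
Level in each liver (CPM on axes from 0, 1 point per liver, dash and bar for the mean ± SD of 4 livers) of further enzymes and of genes whose levels are given beside the bile acid genes. Hsd17b6 is lower and Cyp7b1 and Epcam are higher in every N-LKO liver than in every WT liver, whereas Cyp2c70 overlaps in 1 liver.

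Of the FXR targets, which include Nr0b2, Abcb11 and Abcb4, 9 were tested and edgeR called 0. Negative log2 fold changes numbered 8 and positive ones 1, where 49.3% of all genes were positive. The median was -0.16, and Abcb4 at -0.014, Fetub at -0.010 and Osgin1 at -0.075 were among the 8. These counts hold for the targets listed and not for all FXR targets. Before adjustment 3 were lower at a p under 0.05 in edgeR, as were 5.9% of all genes. Nr0b2 had the largest log2 fold change in size. Pltp, the phospholipid transfer protein, chosen after its values were seen, had -0.91 (adjusted p = 0.0819 from edgeR, called by DESeq2 with adjusted p = 0.00343). Of the 12 PXR and CAR targets tested, with Abcb1a, Slco1a4 and Abcc2 among them, edgeR called 0 and the median was -0.064. It put 4 below an unadjusted p of 0.05, against 12.8% of all genes. Cyp2b10, the CAR target with the largest log2 fold change in size, had -1.33 (adjusted p = 0.642 from edgeR) and -0.22 without WT liver 2. Cyp3a11, a PXR target chosen after its values were seen, had 0.81 (adjusted p = 0.106 from edgeR, called by DESeq2 with adjusted p = 0.00282).

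The 11 further transporters tested had 0 calls by edgeR and a median of 0.16. At the unadjusted level of 0.05 there were 4, against 12.8% of all genes. The largest log2 fold change was in Slc22a7, an organic anion carrier, at 0.66 (adjusted p = 0.442 from edgeR). The 10 genes of canalicular trafficking and cholestasis had 0 calls and 0 at the unadjusted level, and the largest was Jag1, the Notch ligand, at 0.33. The 14 further receptors and partners had 0 calls and 2 at the unadjusted level, and the largest was S1pr2, a receptor for sphingosine 1-phosphate and conjugated bile acids, at 0.45 (adjusted p = 0.356 from edgeR). DESeq2 and limma-voom also called 0 in these 3 lists.

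Cyp7a1 and Nr0b2 follow the time of day in mouse liver, and clock genes were therefore set beside them. Of 14 clock genes, edgeR called 0, and 9 log2 fold changes were positive with a median of 0.19. At an unadjusted p under 0.05 there was 1 with a higher level, Cry1, a repressor of the clock loop (log2 fold change 0.50, adjusted p = 0.328 from edgeR), and 2 with lower levels, Nr1d1 and Dbp. Nr1d1, the REV-ERB-alpha repressor, averaged 27.4 ± 6.36 CPM (SD, n = 4) in the WT group against 12.2 ± 5.05 CPM (SD, n = 4) in the N-LKO group (log2 fold change -1.18, adjusted p = 0.0632 from edgeR). Its ranges did not overlap, since WT livers were at 19.8 CPM or more and N-LKO livers at 19.4 CPM or less, and N-LKO liver 4, with the most Cyp7a1, had the most Nr1d1 of its group. Without N-LKO liver 4, Nr1d1 was called (adjusted p = 0.0129 from edgeR), and DESeq2 called it with all livers (adjusted p = 0.000533). Dbp, a clock output gene chosen after its values were seen, had a log2 fold change of -1.02 (adjusted p = 0.322 from edgeR). What part time of day has in the levels of Cyp7a1 and Nr0b2 was not tested.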

How the data were processed

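Liver RNA of 4 WT and 4 N-LKO mice was measured. The authors deposited expected counts per gene and liver, estimated from aligned reads, fractional for some genes and not scaled for depth. Of 19642 genes, 52.2% had decimals in at least 1 liver, and the smallest gene sum was 10. The submitters' processing notes name mm9, STAR and Partek, while the study's methods name TopHat2 and cuffdiff. Which of them made the table is not given in the sources used here. For 19006 of 19194 symbols shared with GENCODE M21 (GRCm38) the gene start was the same, with the end 1 base further in the table, so coordinates are those of GRCm38. Whether the counting used strand is not given in the sources used here, so reads of overlapping genes on opposite strands may be shared. The labels and the methods name a small RNA library kit, and the methods removal of rRNA before it.

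Counts were rounded, filtered by filterByExpr (minimum count 10, total 15; 14214 genes kept), put on one scale by TMM, then tested in R 4.3.3 by the quasi-likelihood method of edgeR 4.0.16, genotype as the only term, with Benjamini-Hochberg adjustment and a threshold of 0.05. Intervals are 95%. CPM values are TMM-scaled and log2 CPM used a prior count of 2. The fit was tested on simulated data. Library pairs differed by a chi-square per degree of freedom of 10.7 to 61.3, more than sampling noise. 

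The 34 genes and all lists were chosen with earlier results of these data known. Named were all 34, Nus1, every called gene of the lists beside them and the largest change of each pathway list (Nr1d1 for the clock genes). Cyp7b1, Cyp2c70, Cyp46a1, Pltp, Cyp3a11, Cry1, Dbp, Slco1a1, Fetub, Osgin1 and the single markers Fabp2, Vil1, Krt7 and Cftr fall outside that rule and were chosen after their values were seen. Replicate numbers are those of the titles. Each choice was varied alone, with no filter or at least 10 counts in every liver, RLE scaling or library totals without TMM, a replicate block by title or library number, DESeq2 1.42.0, limma-voom (limma 3.58.1), each liver left out, and a prior count of 0.5.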

Additional observations from a re-analysis of the deposited data

Results flagged for a closer look

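In groups of 4 livers, 70 in all, the highest or lowest log2 CPM was compared with its gap to the nearest liver, and 5 values stood apart where chance gives 3.5. Slc10a1 was at 9.39 in WT liver 2, above the 9.16 to 9.17 of the other WT livers. Scp2 was at 11.88 in WT liver 2, below the 11.94 to 11.96 of the others. Abcb1a was at 1.11 in N-LKO liver 4, below 1.60 to 1.67. Abcc4 was at 1.40 in N-LKO liver 3, above 1.11 to 1.16. Nus1 was at 6.36 in WT liver 1, below 6.49 to 6.50, and still far above the N-LKO livers.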

How the results depend on the processing

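Over 16 other settings, 27 of the 33 genes tested kept the sign of their log2 fold change. With library totals alone, which moved the median of all genes by -0.034, to -0.037, Hsd3b7 became -0.012 and Fgfr4 -0.022. With each liver left out the sign changed within the ranges of -0.065 to 0.043 for Cyp8b1, -0.049 to 0.11 for Hsd3b7, -0.068 to 0.027 for Abcb4, -0.10 to 0.028 for Nr1h4, -0.047 to 0.11 for Hnf4a and -0.069 to 0.081 for Fgfr4. The number of bile acid genes called was 0, with 1 under DESeq2 and 0 to 1 with each liver left out. The count of all genes called, 148, became 98 with at least 10 counts in every liver, 371 with DESeq2 and 71 to 173 with each liver left out, with 71 without WT liver 4. Of the genes in the other lists, 5 were called, with 3 under library totals alone, 14 under DESeq2, 2 under limma-voom and 1 to 7 with each liver left out. A prior count of 0.5 moved 1 gene, Slc51b, from -0.54 to -0.79 in the difference of mean log2 CPM. The cause of these shifts was not tested.

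The replicate numbers of the titles did not pair the livers (correlations of deviations from -0.085 to 0.062), nor did the library numbers (-0.0092 to 0.17). With a replicate block by title number 131 genes were called, 0 of the 33 bile acid genes (6 at an unadjusted p under 0.05) and 7 in the other lists. With a replicate block by library number 113 were called, 0 of the 33 (9 at the unadjusted level) and 4, and neither Epcam nor Spp1 was called. The block changed no call among the 33 genes. Depth limits Slc51b, Abcb1a and Abcc4, where a floor of 3 counts is up to 0.204 CPM.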
